A study of Homo sapiens with 32 samples.

Results

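The messenger RNAs described here encode enzymes of cholesterol synthesis and the control of that pathway by sterol regulatory element-binding proteins (SREBPs). The genes are HMGCS1, SQLE, INSIG1, SREBF2, IDI1, FDFT1, FDPS and DHCR7, found by giving the RefSeq accessions that name the rows of the decay tables their current symbols. Of these 8 genes, 7 had a transcript in the tables of both cell lines, among 10829 genes in all. HMGCS1, the HMG-CoA synthase of the pathway, had no row and is not analysed here. Beside them were set the other genes of 4 lists, covering synthesis, regulation, uptake and transport, and the fatty acid branch. The lists as used here hold 56 genes, 50 of them measured in both lines.

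The lines were MDA-MB-231, long established from a human breast cancer, and MDA-LM2, a derivative of it that was selected for metastasis to the lung. The labels name no edited allele and no agent other than the label itself, and both lines grew in the same medium with serum, so each condition is 1 cell line. Cells received 4-thiouridine (4sU), a uridine analogue that marks newly made RNA, for 2 h, followed by fresh medium with excess uridine. Labelled RNA was recovered 0, 2, 4 and 7 h later, with 4 libraries per line and time point. For each transcript the tables give a decay rate in each of the 4 replicate series of a line, labelled 1_1, 1_2, 2_1 and 2_2. A positive rate means that abundance fell after the pulse. Neither the log base nor the time scale of the rates is given in the sources used here, and half-lives were therefore not computed. Rates hold no abundance, so neither transcript levels nor markers of the cell lines were checked.

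Over all genes, the median rate of a series was 0.165 ± 0.0106 in MDA-LM2 against 0.189 ± 0.0152 in MDA-MB-231 (SD, n = 4 series). Rates farther than 1 from 0 stood apart from this bulk and made up 3.07% to 4.93% of gene values in an MDA-LM2 series and 16.9% to 18.8% in an MDA-MB-231 series. Series with the same second number in their label resembled each other. Their rank correlation across genes within a line was 0.631 to 0.837, against 0.253 to 0.628 for other pairs. The fit was therefore also run with a correlation between these series. Whether the series are separate cultures is not stated, and p-values therefore measure the spread between these series alone.

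Cholesterol is made from acetyl-CoA through mevalonate, isoprenoid diphosphates, squalene and lanosterol. When the endoplasmic reticulum holds little cholesterol, the SCAP protein carries SREBPs to the Golgi, where the proteases MBTPS1 and MBTPS2 release the part that enters the nucleus and switches on the genes of synthesis and uptake. When sterols are plentiful, INSIG proteins hold SCAP back. How long each messenger RNA lasts sets how quickly its amount can follow such a switch.

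AU-rich stretches in 3′ untranslated regions (3′ UTRs) are known as elements that can shorten the life of a messenger RNA, and the pentamer ATTTA is their core. The windows of 25 bases that hold the most ATTTA are shown for 3 genes, because they are the letters most like a decay element in 2 regulators and in the gene with the most pentamers. Sequences are those of GENCODE on GRCh38, 5′ to 3′ on the transcript strand, with ATTTA in capitals and the first such window where several tie.
INSIG1 (NM_198336, chr7:155308359-155308383, + strand): gtaatctATTTAgatcgggctgact
SREBF2 (NM_004599, chr22:41906356-41906380, + strand): atggtatcttATTTAattgtcctgt
IDI1 (NM_004508, chr10:1041096-1041120, - strand): aaATTTAgttctatcattaATTTAt

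IDI1 held 11 ATTTA in a 3′ UTR of 1279 bases, INSIG1 6 in 1875 bases and SREBF2 4 in 1648 bases. Its window with 2 pentamers put IDI1 among the 20.7% of 11499 3′ UTRs of at least 25 bases with such a window, while 71.4% had a window with at least 1. The longer motif TTATTTATT was found in none of the 6 matched transcripts of these genes (also DHCR7, FDFT1 and SQLE), against 8.29% of 11567 3′ UTRs. It was searched on the transcript strand only, and it contains ATTTA. IDI1, with the most pentamers, lay near or below the middle of all genes in decay rate, at median percentiles of 45.9 in MDA-LM2 and 32.5 in the parental line. SQLE, with 3 pentamers in 338 bases, had the most per length (8.88 per kb against 8.60 for IDI1), and lay above the middle, at 63.0 and 63.4. FDFT1 came next with 7.14 per kb, and lay below the middle, at 28.2 and 14.98. INSIG1 had 3.20, SREBF2 2.43 and DHCR7 2.08 per kb, beside a median of 1.79 per kb over all 3′ UTRs. A match is a description of the letters and not of a working element.

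None of the 7 measured genes passed the limma fit in either direction, against 6.71% of all genes called slower in MDA-LM2 and 2.0% called faster. At an unadjusted p under 0.05 limma gave 2 of the 7, SREBF2 as slower and INSIG1 as faster in MDA-LM2, where 19.1% of all genes were lower and 7.08% higher. These shares are near the background. The p behind the deposited score, adjusted over all transcripts, called 0 of them, and at least 1 row of 5.35% of all genes as slower and of 1.28% as faster. The mean was lower in MDA-LM2 for 4 of the 7, where 67.0% of all genes had a lower mean. SREBF2, the gene of the pathway's main transcription factor, was the one of the 7 whose series did not overlap, a state that held for 17.6% of all genes with the lower rates in MDA-LM2 and for 5.61% with the higher.

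SREBF2 encodes SREBP-2, the family member that mainly drives the cholesterol genes. Its transcript (NM_004599) had rates of 0.0741, 0.202, 0.0988 and 0.145 in the MDA-LM2 series 1_1, 1_2, 2_1 and 2_2. In MDA-MB-231 the rates were 0.337, 0.212, 0.336 and 0.250 in the same order. Every MDA-LM2 series lay below every MDA-MB-231 series. The means were 0.130 ± 0.0565 and 0.284 ± 0.0627 (SD, n = 4 series), a difference of -0.154 with a standard error of 0.0414. This missed the threshold of 0.05 in the limma fit over all genes (adjusted p = 0.0694), and with correlated series the limma adjusted p was 0.170. The limma adjusted p reached 0.0484 when only genes with all rates within 1 of 0 were fitted, and 0.0415 without MDA-MB-231 replicate 2. In series 1_1 and 2_1 the difference was -0.250, and in series 1_2 and 2_2 it was -0.0576. The authors' deposited table gave SREBF2 a differential score of 0.989, where a positive sign marks slower decay in MDA-LM2 and the size is 1 minus a two-sided p.

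INSIG1 encodes the sterol-sensitive anchor that holds SCAP in the endoplasmic reticulum, and its own transcription is driven by SREBP. It had 2 rows in both tables, and these went in opposite directions. The row NM_005542 had rates of 0.432, 0.490, 0.405 and 0.422 in MDA-LM2 and of 0.407, 2.78, 3.05 and 0.372 in MDA-MB-231. It was among the faster transcripts of MDA-LM2 in every series, between percentiles 90.8 and 93.4 of all transcripts, and between 75.9 and 90.4 in MDA-MB-231. The 4 MDA-LM2 values lay close together, while MDA-MB-231 had 1_1 and 2_2 near the same level and 1_2 and 2_1 far above it.

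The row NM_198336 of INSIG1 had rates of 0.406, 9.47, 9.37 and 9.40 in MDA-LM2 and of 0.140, -8.22, 0.115 and 0.289 in MDA-MB-231. Here 3 MDA-LM2 series lay in the cluster of very high rates and 1 MDA-MB-231 series lay far below 0. Neither row passed in the limma fit on transcripts, which called 6.04% of 12966 transcripts slower in MDA-LM2 and 1.9% faster. The difference was -1.22 for NM_005542 (limma adjusted p = 0.294) and 9.08 for NM_198336 (limma adjusted p = 0.109). The median over both rows, used as the gene's value, averaged these and gave 3.80 ± 2.25 and -0.133 ± 1.83 (limma adjusted p = 0.122). How reads were divided between transcripts of 1 gene is not stated, so the gene value is not read as the rate of any transcript. In the authors' deposited table the score was 0.805 for NM_005542 and -0.974 for NM_198336.

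The genes whose 8 rates lay nearest to the INSIG1 gene value by Euclidean distance were TYW3 (2.72), SKP1 (3.05) and ZNF398 (5.003). For the row NM_005542, in a comparison added after its values were seen, they were SBNO2 (0.521), UBE3A (0.911) and TYW3 (0.949). The distance is in the unit of the rates, and nothing is read from it about function or control.

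**Figure D1:**
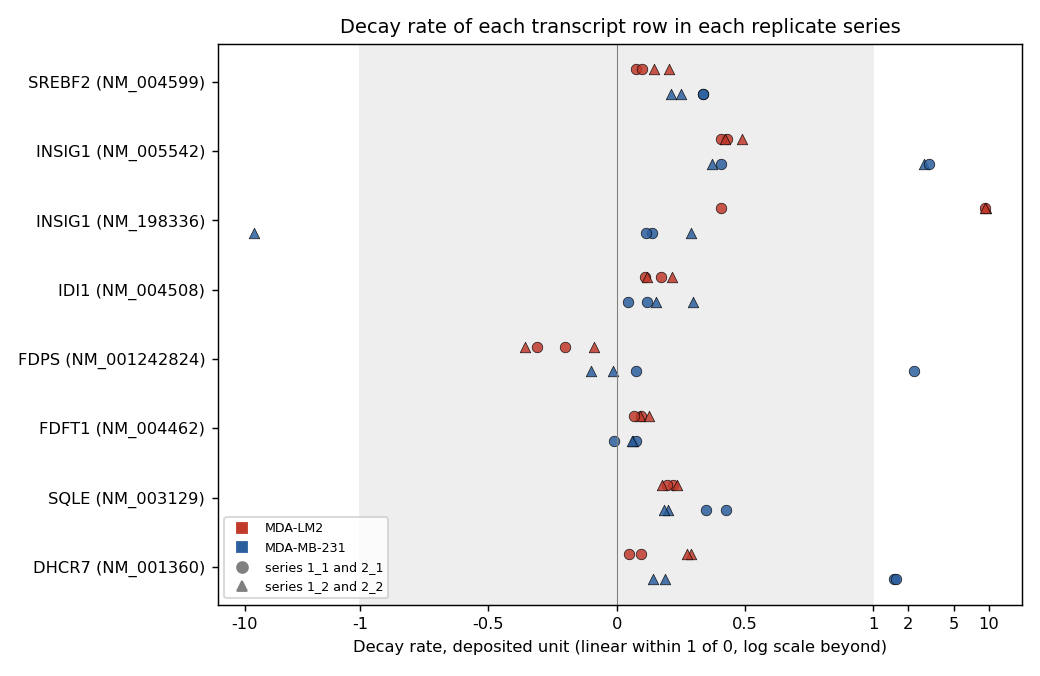
Decay rate (horizontal axis, deposited unit, linear within 1 of 0 and logarithmic beyond) of each transcript row of the 7 measured genes, with 1 symbol per replicate series, MDA-LM2 in red and MDA-MB-231 in blue. Circles are series 1_1 and 2_1, triangles series 1_2 and 2_2, and the grey band marks rates within 1 of 0. SREBF2 separates the lines inside the band, while both INSIG1 rows, FDPS and DHCR7 have series outside it.

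Along the pathway, the first enzyme measured among the chosen genes was IDI1, which interconverts the isoprenoid building blocks. Its rates (NM_004508) were 0.173, 0.216, 0.109 and 0.119 in MDA-LM2 and 0.0440, 0.299, 0.119 and 0.153 in MDA-MB-231. The means were 0.154 ± 0.0497 and 0.154 ± 0.107 (SD, n = 4 series), with a difference of 0.000608 and a standard error of 0.0558 (limma adjusted p = 0.997). The series of the lines overlapped.

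FDPS joins these blocks into farnesyl diphosphate, the branch point toward sterols and protein prenylation. Its row in both tables (NM_001242824) had rates of -0.201, -0.0876, -0.312 and -0.358 in MDA-LM2. In MDA-MB-231 the rates were 0.0744, -0.0145, 2.28 and -0.0998. In MDA-LM2 this row lay between percentiles 0.72 and 2.71 of all genes, among the slowest, with every rate below 0. In MDA-MB-231 it ranged from percentile 3.44 to 88.6, and 1 series alone was far above the other 3. The difference of -0.799 had a standard error of 0.533 (limma adjusted p = 0.352), and was -0.226 without MDA-MB-231 replicate 3 (series 2_1). A further FDPS transcript was listed only for MDA-LM2 and 2 more only for MDA-MB-231, so they entered no comparison. The one for MDA-LM2 had rates of 0.142, -0.0882, 0.224 and -0.0331, so FDPS was not below 0 throughout that line. Those for MDA-MB-231 had 7.26, 9.66, 1.20 and 1.13, and 3.07, -1.27, 0.260 and 0.267.

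FDFT1, squalene synthase, commits the pathway to sterols. Its rates (NM_004462) were 0.0958, 0.0926, 0.0679 and 0.128 in MDA-LM2 and -0.0113, 0.0656, 0.0738 and 0.0600 in MDA-MB-231. It was slow in both lines, with median percentiles of 28.2 and 14.98. Its mean was higher in MDA-LM2 by 0.0491 with a standard error of 0.0239 (0.0961 ± 0.0247 against 0.0470 ± 0.0393, limma adjusted p = 0.245). The difference was about as large in both sets of series, 0.0506 and 0.0475, but was 0.0296 without MDA-MB-231 replicate 1 (series 1_1), and it did not pass.

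SQLE, squalene epoxidase, catalyses the first oxygen-dependent step. Its rates (NM_003129) were 0.220, 0.235, 0.197 and 0.176 in MDA-LM2 and 0.427, 0.199, 0.349 and 0.186 in MDA-MB-231. The MDA-MB-231 series 1_1 and 2_1 lay above all MDA-LM2 series, and 1_2 and 2_2 lay among them. The difference of -0.0833 (standard error 0.0578, limma adjusted p = 0.372) was -0.179 in the first of these sets and 0.0129 in the second. Without MDA-MB-231 replicate 1 it was -0.0376.

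DHCR7 catalyses the last step, the reduction of dehydrocholesterol to cholesterol. Its rates (NM_001360) were 0.0959, 0.289, 0.0495 and 0.275 in MDA-LM2 and 1.502, 0.144, 1.59 and 0.187 in MDA-MB-231. In MDA-MB-231 the series 1_1 and 2_1 were high and the other two low, and in MDA-LM2 the order was the opposite. The difference of -0.677 (standard error 0.373, limma adjusted p = 0.278) was -1.47 in series 1_1 and 2_1 and 0.116 in series 1_2 and 2_2. Without MDA-MB-231 replicate 3 it was -0.434.

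Within MDA-LM2 the 7 genes could be ordered only in part. By mean rate the order was FDPS, FDFT1, SREBF2, IDI1, DHCR7, SQLE and, at the top, INSIG1 by its row NM_005542. FDPS, by its row NM_001242824, lay below FDFT1 in every series, and INSIG1 lay above SQLE and DHCR7 in every series. The neighbours from FDFT1 to SQLE overlapped in their series. In MDA-MB-231 the order was FDFT1, IDI1, SREBF2, SQLE, FDPS, DHCR7 and INSIG1, and every pair of neighbours overlapped. FDFT1 nevertheless stood apart from some genes farther up, since its highest series (0.0738) lay below the lowest series of SREBF2 (0.212), SQLE (0.186) and DHCR7 (0.144).

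The comparison of regulators with the enzymes is a description of ranks, since genes are not replicates. In each series a gene's percentile among all genes was taken, and the median over the genes of a role was averaged over the 4 series. The regulators SREBF2 and INSIG1 stood at 68.3 ± 7.99 in MDA-LM2 against 61.5 ± 21.8 in MDA-MB-231 (SD, n = 4 series). The enzymes IDI1, FDPS, FDFT1, SQLE and DHCR7 stood at 38.3 ± 16.1 and 43.6 ± 21.3. In MDA-LM2 the lowest regulator value was 59.0 and the highest enzyme value 60.3, and in MDA-MB-231 the ranges of these groups overlapped widely.

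In MDA-LM2 the higher rank of the chosen regulators came from INSIG1, with a median percentile of 98.5, while SREBF2 had 37.8. For INSIG1 these ranks used the gene value, the median of 2 unlike rows. In MDA-MB-231 that value was -2.72 in series 1_2 (percentile 1.14), where the row NM_198336 was -8.22. The row NM_005542 lay between percentiles 75.9 and 90.4 of all transcripts in MDA-MB-231, and between 90.8 and 93.4 in MDA-LM2. Over all 12 listed regulators the median percentile was 45.7 ± 2.39 in MDA-LM2 against 56.97 ± 4.72 in MDA-MB-231. Over the 18 measured enzymes it was 38.5 ± 2.44 and 52.8 ± 7.33. In MDA-LM2 the series values of the regulators (42.6 to 48.3) lay just above those of the enzymes (36.7 to 42.1). In MDA-MB-231 they overlapped, at 54.1 to 63.99 and 48.2 to 63.7.

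**Figure D2:**
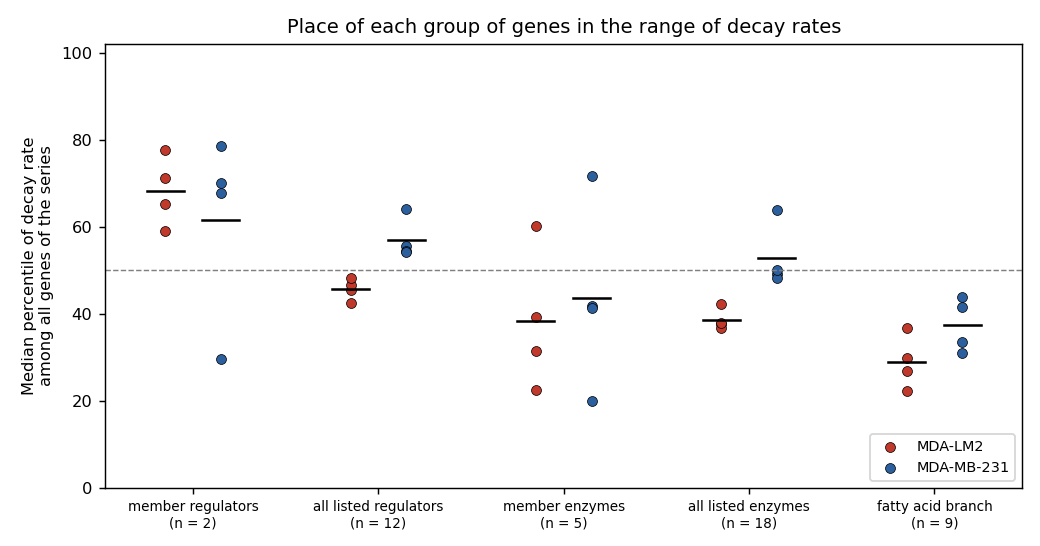
Median percentile of the decay rate among all genes (vertical axis) for each group of genes, with 1 point per replicate series and a bar at the mean of the 4 series of a line, and the dashed line at the middle of all genes. SREBF2 and INSIG1, the member regulators, range from 29.6 to 78.6 over the 8 series. The full lists range less widely, from 42.6 to 63.99 for regulators and from 36.7 to 63.7 for enzymes. For INSIG1 the gene value, the median of 2 unlike rows, was ranked.

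Across the 4 lists, 7 of 50 measured genes (14.0%) decayed more slowly in MDA-LM2 and 0 decayed faster in the limma fit (adjusted p under 0.05), where 6.71% and 2.0% of all genes did. At an unadjusted p under 0.05, limma gave 14 of 50 lower and 2 higher, where it gave 19.1% of all genes lower and 7.08% higher. The adjusted deposited score called 3 of 50 slower (MSMO1, MBTPS1 and FADS1) and 0 faster, near the 5.35% and 1.28% of all genes. The mean was lower in MDA-LM2 for 37 of 50 genes (74.0%), beside 67.0% of all genes. The median difference was -0.0804 over the lists and -0.0539 over all genes. With correlated series 2 genes, MSMO1 and LIPA, were called slower, where limma called 3.18% of all genes slower and 0.323% faster. LIPA passed as the median of 2 rows, and neither row passed by itself with correlated series (limma adjusted p = 0.0542 and 0.785). Without any 1 of the 4 MDA-LM2 series 4 of the 7 were left.

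Of the 18 measured enzymes of synthesis, limma called 3 (16.7%) slower in MDA-LM2, beside 6.71% of all genes: MSMO1, EBP and ACAT2. MSMO1, which removes methyl groups from sterol intermediates, had rates of 0.316, 0.251, 0.195 and 0.0971 in MDA-LM2 and of 2.82, 2.83, 2.83 and 2.68 in MDA-MB-231. Its difference of -2.58 (standard error 0.196, limma adjusted p = 0.000187) passed in all 16 alternatives that gave it a value, with a largest adjusted p of 0.0444. All 4 MDA-MB-231 rates lay above 1, as they did for 4.72% of genes in that line, and rates from 2.5 to 3 made up 0.787% of its gene values. The part of these outlying rates in the MSMO1 difference was not tested. A further MSMO1 transcript was listed only for MDA-LM2, with rates of -2.22, -0.224, -0.264 and 1.61. It entered no comparison, so the call rests on the row NM_006745 alone.

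EBP, a sterol isomerase, had rates of -0.00327, -0.00580, -0.00779 and -0.0343 in MDA-LM2 and of 0.178, 0.141, 0.131 and 0.241 in MDA-MB-231. All 8 lay inside the bulk, and the lines did not overlap. The difference of -0.186 (standard error 0.0262) had a limma adjusted p of 0.00656, and of 0.0560 with correlated series. ACAT2, the thiolase that starts the pathway, had means of 0.00876 ± 0.0348 and 0.125 ± 0.0439 (limma adjusted p = 0.0490, or 0.128 once series were correlated). ACAT2 was also the slowest listed enzyme by the mean over both lines, followed by FDFT1.

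The fastest listed enzymes by that mean were TM7SF2 and NSDHL, both through very high rates in some series. TM7SF2, a sterol reductase, had 0.0222 ± 0.209 in MDA-LM2 against 6.92 ± 4.55 in MDA-MB-231, where series 1_2 was 0.0880 and the other 3 were 9.15 to 9.25. NSDHL, a sterol dehydrogenase, had 2.52 ± 2.74 and 3.54 ± 2.34 as the median of 2 rows. Its high rates lay in the row NM_001129765, which differed by -2.14 (limma adjusted p = 0.676). The row NM_015922 had 0.163 ± 0.0505 and 0.0496 ± 0.0749, a difference the other way of 0.114 (limma adjusted p = 0.158). Neither passed (limma adjusted p = 0.107 for TM7SF2 and 0.714 for NSDHL).

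Among the 12 regulators limma called 1 (8.33%) slower in MDA-LM2, near the 6.71% of all genes. MBTPS1, the protease that makes the first cut in SREBP, had rates of 0.108, 0.123, 0.121 and 0.0969 in MDA-LM2 and of 0.221, 0.217, 0.254 and 0.288 in MDA-MB-231. The difference of -0.133 (standard error 0.0211) was -0.123 and -0.143 in the sets of series. It passed with a limma adjusted p of 0.0108, and the adjusted p was 0.0832 with correlated series.

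SCAP, the SREBP escort, had 0.0872 ± 0.0276 and 0.159 ± 0.0495 and did not pass (limma adjusted p = 0.169). MBTPS2, the second protease and the slowest listed regulator by its mean over both lines, had 0.107 ± 0.0231 and 0.128 ± 0.0344 (limma adjusted p = 0.525). The 2 proteases that act in turn on SREBP were thus not called alike, and the difference between them was not tested. TMEM97, an endoplasmic reticulum protein of sterol balance and the next slowest, had 0.145 ± 0.0181 and 0.0979 ± 0.0337 (limma adjusted p = 0.213), and passed as faster in MDA-LM2 after each series was centred on its median (0.0381 by limma). INSIG2, the second anchor of SCAP, was the fastest regulator by its mean. Its rates were 0.207, 0.105, 0.192 and 0.353 in MDA-LM2 and 0.359, 9.62, 9.46 and 9.42 in MDA-MB-231. The lines did not overlap, but 1 MDA-MB-231 series lay just above the MDA-LM2 values and the adjusted p was 0.105 in limma. Rates between 9 and 10 made up 7.88% of all gene values in MDA-MB-231 against 1.09% in MDA-LM2, and their part in the INSIG2 difference was not tested.

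**Figure D3:**
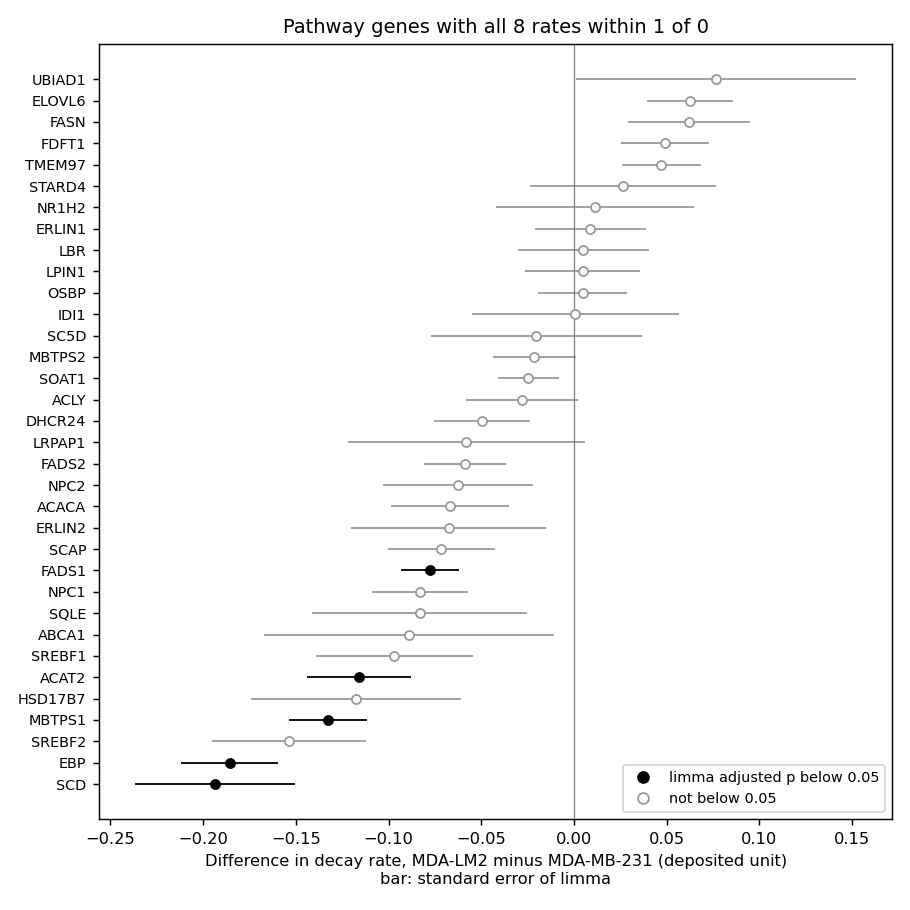
Difference in decay rate, MDA-LM2 minus MDA-MB-231 (horizontal axis, deposited unit), for the 34 listed genes with all 8 rates within 1 of 0, with bars for the limma standard error. Filled points passed a limma adjusted p of 0.05 over all genes: SCD, EBP, MBTPS1, ACAT2 and FADS1, all to the left of 0.

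Uptake and transport genes included 1 gene called slower of 11 measured (9.09%), near the 6.71% of all genes. LIPA, the lysosomal acid lipase that frees cholesterol from esters, had a gene value of -1.004 ± 0.0981 in MDA-LM2 against 0.841 ± 0.459 in MDA-MB-231 (limma adjusted p = 0.00258). That call rested on the row NM_001127605, which differed by -3.73 (limma adjusted p = 0.00402, or 0.0542 once series were correlated), while the row NM_000235 differed by 0.0406 (limma adjusted p = 0.625). The row NM_001127605 had rates of -2.30, -1.73, -2.17 and -1.99 in MDA-LM2 and of 1.61, 0.525, 1.64 and 2.95 in MDA-MB-231. Every MDA-LM2 rate of that row lay below -1, whereas a fall in abundance gives a positive rate. The part of these outlying rates in the LIPA call was not tested. By the mean over both lines, LIPA and NPC2, a lysosomal protein that binds cholesterol, were the slowest of the list. The LIPA gene value, however, had a median percentile of 0.646 in MDA-LM2 and of 83.5 in MDA-MB-231. Its row NM_000235 had 17.7 and 11.1 among all transcripts. MYLIP, a ubiquitin ligase whose gene is switched on by sterols, was the fastest, with 0.275 ± 0.0471 in MDA-LM2 against 4.90 ± 5.33 in MDA-MB-231 (limma adjusted p = 0.278). STARD3, a sterol transfer protein of late endosomes, followed with 0.154 ± 0.0770 and 0.671 ± 0.986 (limma adjusted p = 0.473).

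In the fatty acid branch, driven mainly by SREBP-1, limma called 2 of 9 genes (22.2%) slower in MDA-LM2, beside 6.71% of all genes. SCD, the stearoyl-CoA desaturase, had rates of 0.0798, 0.110, 0.114 and 0.109 in MDA-LM2 and of 0.301, 0.175, 0.334 and 0.377 in MDA-MB-231 (difference -0.194, limma adjusted p = 0.0387). FADS1, a desaturase of polyunsaturated fatty acids, had 0.0518 ± 0.0211 and 0.130 ± 0.0118 (difference -0.0778, limma adjusted p = 0.0269). With correlated series the limma adjusted p was 0.228 for SCD and 0.142 for FADS1. FADS2 and ACLY were the slowest of the list, and ACSS2 and SCD the fastest. ACSS2, an acetyl-CoA synthetase, had 0.668 ± 1.23 and 1.17 ± 1.13, with a limma adjusted p of 0.668.

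ACAT2, SCD and FADS1 each passed in 1 of the 8 fits that left out a series, the fit without MDA-MB-231 replicate 2. MSMO1, EBP, MBTPS1 and LIPA passed in all 8. When genes with all rates within 1 of 0 were fitted alone, limma called 6 listed genes slower (7.36% of all genes in range) and 0 faster (3.67%), SREBF2 among the 6. With correlated series in that fit it called 0 of 34 listed genes, as it called 0.0138% of genes in range slower and 0.0% faster.

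Each difference was also computed within both sets of series that share a second number. Of the 34 listed genes in range, 13 (38.2%) had a lower rate in MDA-LM2 in both sets and 5 (14.7%) a higher rate in both. The other 16 (47.1%) changed sign between the sets. Over all 7224 genes in range the shares were 36.0%, 23.6% and 40.4%. The differences between these shares were not tested. Of the genes called, all 7 kept their sign. EBP had -0.160 and -0.211, and FADS1 -0.0757 and -0.0798, while ACAT2 had -0.179 and -0.0525. A call on the same series already favours genes that keep their sign, so this adds no support to the calls.

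**Figure D4:**
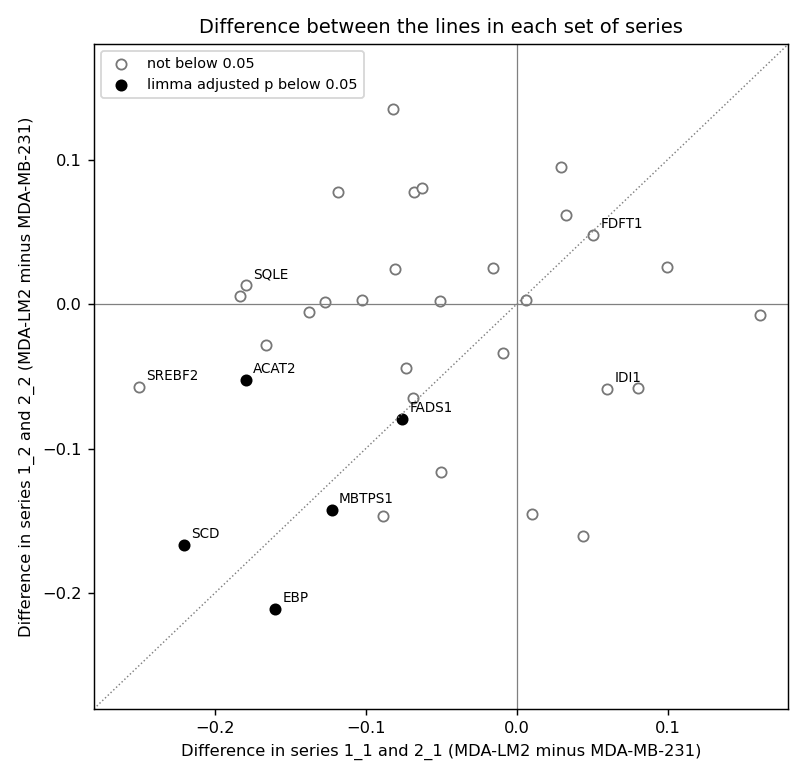
Difference in decay rate, MDA-LM2 minus MDA-MB-231, in series 1_1 and 2_1 (horizontal axis) and in series 1_2 and 2_2 (vertical axis), both in the deposited unit, for the 34 listed genes in range, with the dotted line where both are equal. The 5 filled points, which passed limma on these same series, lie at the lower left, a place that the call itself favours. SQLE and IDI1 lie where the sign changes.

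Rates beyond 1 were about as common in the lists as elsewhere. In MDA-MB-231, 16 of 50 listed genes had such a rate in at least 1 series, beside 31.9% of all genes, and in MDA-LM2 4 had, beside 9.7% of all genes. Of the 18 measured enzymes 9 had one in MDA-MB-231 against 1 in MDA-LM2, of the 12 regulators 3 and 1. Outside MSMO1, no listed gene had all 4 MDA-MB-231 rates above 1 in its gene value, the median over its rows. LSS, the cyclase that forms lanosterol and a gene named after its values were seen, had rates (median over 2 rows) of 0.184, -0.367, 0.265 and 0.245 in MDA-LM2 and of 4.68, 4.64, 0.915 and 4.68 in MDA-MB-231, with a limma adjusted p of 0.0593. Its rows were unlike: NM_001145436 differed by -7.29 (limma adjusted p = 0.0719) and held all the rates beyond 1. In MDA-MB-231 that row had 9.20, 9.38, 1.73 and 9.25, each above 1. The row NM_001001438 differed by -0.00117 (limma adjusted p = 0.995).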

How the data were processed

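Labelled RNA of MDA-MB-231 and MDA-LM2 was sequenced in 32 libraries. The submitters' processing notes name TopHat, Cufflinks and the build hg18, with neither version nor role. The deposited tables hold 1 decay rate per RefSeq transcript and replicate series, which the authors estimated from the fall in abundance over the time points, per the labels' protocols. Read depth is unknown, so no interval that needs it is given. A differential score per transcript was also deposited by the authors. For each of the 12966 transcripts present in both tables it could be rebuilt to within 0.001 as 1 minus the p-value of a two-sided test with unequal variances, signed positive where MDA-MB-231 had the higher mean, and this p served as an alternative.

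RefSeq accessions were given symbols from a RefSeq gene table of GRCh38.p14 (12644), which is a later build, and from GENCODE (118), and 204 without a symbol stood for themselves. Coordinates are given for the 3′ UTR windows alone, on GRCh38. Transcripts present in both tables were reduced to their median per gene, and 9137 of 10829 genes had 1. Percentiles rank a gene within its series. limma 3.58.1 in R 4.3.3 (variance trend, two-sided, Benjamini-Hochberg over all genes, threshold 0.05) compared 4 series with 4, with no block, and was tested on simulated data. The simulated rates had independent noise and were modelled on genes in range alone. That test therefore does not cover series that share noise or rates beyond 1. Its set differences were larger than those of the called listed genes in range. The alternatives were a fit per transcript, the mean over transcripts, centring each series, genes with all rates within 1 of 0, correlated series (estimated correlation 0.457), a replicate block, no trend, robust moderation, the deposited score, and leaving out each series. Correlated series within the range of 1 were added after the data were seen.

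The genes, lists and tests were chosen with earlier results of these data known. Named are the 8 genes, every called gene of the 4 lists, the 2 fastest and 2 slowest of each list by the mean over both lines, and the 3 genes nearest to INSIG1. SCAP, LSS and the genes with 3′ UTR counts beyond these were named after their values were seen. Some genes of the planned lists are not reported here, and counts, medians and figures over lists leave them out. Of the 56 genes used, MVK, PMVK, SCARB1, ABCG1, NR1H3 and HMGCS1 had no transcript in both tables. The 3′ UTRs came from GENCODE transcripts that GENCODE pairs with the accessions. Figures and summaries were made in Python 3.11.15 with numpy, pandas, scipy and matplotlib.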

Additional observations from a re-analysis of the deposited data

Results flagged for a closer look

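Of 32 groups of 4 series of 1 line, 8 had 1 series standing well apart. About 1 in 20 such groups, here 1.6, would be so by chance if the series were independent, but many of these genes have rates in separate clusters and series share noise. The groups also overlap, since the INSIG1 gene value and its row NM_198336 were counted separately and both were flagged in MDA-LM2.

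In MDA-LM2, the INSIG1 gene value of series 1_1 was 0.419, below the other 3, which lay between 4.89 and 4.98. Its row NM_198336 was 0.406 in the same series, against 9.37 to 9.47 in the others. In MDA-MB-231 that row was -8.22 in series 1_2, against 0.115 to 0.289. FDPS was 2.28 in series 2_1 of MDA-MB-231, against -0.0998 to 0.0744. In each of these groups the series apart and the other 3 lay on opposite sides of 1 or of -1.

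The remaining groups lay close together. FDFT1 was -0.0113 in series 1_1 of MDA-MB-231, against 0.0600 to 0.0738. MSMO1 was 2.68 in series 2_2 of MDA-MB-231, against 2.82 to 2.83. EBP was -0.0343 in series 2_2 of MDA-LM2, against -0.00779 to -0.00327. SCD was 0.0798 in series 1_1 of MDA-LM2, against 0.109 to 0.114. For MSMO1, EBP and SCD the series apart lay on the same side of the other line as the rest of its group.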

How the results depend on the processing

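Of the 7 called pathway genes, MSMO1 passed in all 16 alternatives, LIPA and MBTPS1 in 15 of 18, EBP in 14, FADS1 in 7, SCD in 6 and ACAT2 in 5. SREBF2 passed in 2 of 18, and no other chosen gene passed in any. The alternatives reuse the same rates, and for genes with 1 or 2 rows the mean over transcripts equals the median. MSMO1 and LIPA were left out of the fits in range, while LIPA was counted for both of its rows. These tallies are therefore not independent checks and not alike between genes. Signs turned for the row NM_005542 of INSIG1 (-1.22) and NM_000235 of LIPA (0.0406), with the same values where the deposited score was used. IDI1 ranged from -0.0360 to 0.0489 when a series was left out. The pathway count of slower genes was 2 with correlated series, 2 with a replicate block, 0 in range with correlated series and 3 by the deposited score. It was 4 to 9 when a series was left out, and 1 gene, TMEM97, was called faster after centring. Over all genes, slower calls were 344 with correlated series, 250 with the replicate block and 1 in range with correlated series, and 406 to 1008 with a series left out. Faster calls were 434 with centring (560 slower), 35 with correlated series, 27 with the block, 0 in range with correlated series, 139 by the deposited score and 84 to 283 with a series left out. Series of the 2 lines with the same label did not deviate together (r from -0.0373 to -0.00799), so the block pairs only numbers. Role medians of the rate moved with centring, by construction: to -0.0377 (MDA-LM2) and -0.00926 (MDA-MB-231) for the 5 chosen enzymes, to -0.0389 and 0.0162 for all enzymes, and to -0.0143 and 0.0332 for all regulators. In range they moved to 0.130 for the chosen regulators in MDA-LM2, where INSIG1 dropped out, and in MDA-MB-231 to 0.139 for all enzymes and 0.1695 for all regulators. Apart from these constructions and fits with fewer genes or series, the cause was not tested. Depth is unknown, and 4 series that share noise limit what differences inside the bulk can pass.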
